A study of Arabidopsis thaliana with 12 samples.

Results

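The 4 expansin-like genes EXLB1, EXLA1, EXLA2 and EXLA3 were followed through RNA-seq of Arabidopsis thaliana seedlings in 4 genotypes. They were taken by gene identifier from the 32548 genes of the deposited expression table. EXLB1 was chosen by its measured fall in gte4 and eml1 eml2 against wild type, and the 3 EXLA genes because they are its relatives. Differences of these 4 genes from wild type are therefore given as a description, without a test. The genotypes were wild type, the single mutant gte4, the double mutant eml1 eml2, and gte4 eml1 eml2, called the triple mutant here, each with 3 samples. Plants spent 12 days on MS plates and were then kept in soil to an age of 20 days, at 22 °C with 16 h of light and 8 h of dark, and no treatment was given. The GTE4 protein has a bromodomain, which recognises acetylated lysines on histones, and the EML proteins are named for their likeness to human EMSY. The series title places them in a complex that reads histone acetylation and H3K4 trimethylation. The mutant alleles, and whether a sample was a single plant or a pool, are not given in the labels, so a p-value here reflects only how these samples vary, which may be technical variation.

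Expansins are small secreted proteins that loosen the plant cell wall without cutting its polymers, and so let turgor expand the cell. Plants have alpha-expansins (EXPA) and beta-expansins (EXPB), for which wall loosening is established, and the expansin-like families EXLA and EXLB, which are recognised by sequence and for which such activity has not been established. In Arabidopsis, EXLA2 has been linked to the response to the fungus Botrytis cinerea.

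EXLB1 (AT4G17030) lies at chr4:9581562-9583290 on the minus strand of TAIR10.1, with 4 exons and 1117 exon bases. EXLA2 (AT4G38400) lies at chr4:17978422-17979740, also on the minus strand, with 3 exons. EXLA3 (AT3G45960, chr3:16892702-16894153) and EXLA1 (AT3G45970, chr3:16896166-16897308) are neighbours on the plus strand, 2012 bases apart, with 3 exons each. The coding sequences of the EXLA genes were alike: 86.6% of aligned bases were identical between EXLA1 and EXLA3, 84.7% between EXLA1 and EXLA2 and 82.8% between EXLA2 and EXLA3. EXLB1 shared 55.5% to 59.8% of aligned coding bases with them. The longest exact run shared by EXLA1 and EXLA3 transcripts was 57 bases, shorter than the 150-base reads. How reads matching both genes were counted is not given in the sources used here, so the values of EXLA1 and EXLA3 carry that uncertainty. EXLA1 also overlaps the histone H2B gene HTB9 on the opposite strand by 22 bases, 2.07% of its exon bases, and the strand of the reads is not stated.

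The 250 bases before each annotated start are shown because the 3 EXLA genes moved together between libraries while EXLB1 did not, as described below. They are read 5′ to 3′ on the strand of the gene, from RefSeq TAIR10.1. The windows are chr4:9583291-9583540 (minus strand) for EXLB1, chr3:16895916-16896165 (plus) for EXLA1, chr4:17979741-17979990 (minus) for EXLA2 and chr3:16892452-16892701 (plus) for EXLA3. Capitals mark matches, on either strand, to the motifs searched.
EXLB1: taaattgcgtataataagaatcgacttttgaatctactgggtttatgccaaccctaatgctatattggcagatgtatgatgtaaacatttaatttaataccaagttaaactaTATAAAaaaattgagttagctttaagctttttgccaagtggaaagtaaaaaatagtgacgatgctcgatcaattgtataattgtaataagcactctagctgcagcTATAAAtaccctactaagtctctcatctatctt
EXLA1: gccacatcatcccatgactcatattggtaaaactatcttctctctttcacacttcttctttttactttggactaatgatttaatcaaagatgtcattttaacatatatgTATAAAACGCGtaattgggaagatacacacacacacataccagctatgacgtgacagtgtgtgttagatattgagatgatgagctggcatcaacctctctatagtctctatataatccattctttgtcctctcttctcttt
EXLA2: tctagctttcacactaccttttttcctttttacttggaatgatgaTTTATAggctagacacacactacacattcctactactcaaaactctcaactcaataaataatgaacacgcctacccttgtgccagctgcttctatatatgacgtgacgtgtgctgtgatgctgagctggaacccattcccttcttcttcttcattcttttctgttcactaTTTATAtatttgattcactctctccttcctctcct
EXLA3: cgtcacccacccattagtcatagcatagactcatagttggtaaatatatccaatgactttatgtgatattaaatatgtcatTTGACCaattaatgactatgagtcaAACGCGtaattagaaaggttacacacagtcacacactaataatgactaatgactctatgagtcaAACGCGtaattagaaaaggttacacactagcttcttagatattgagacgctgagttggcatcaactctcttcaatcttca

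Short motifs, 6 in all, were searched on both strands. CGCGTT, known as the rapid stress response element, occurred in the windows of 2.59% of 27426 protein-coding genes. It had 1 match in EXLA1, 136 bases before the start, and 2 in EXLA3, at 144 and 80 bases, all read on the opposite strand as AACGCG. It had none in EXLA2 or EXLB1. The W-box was searched only as TTGACC, so its form TTGACT was not counted. TTGACC, held by 12.2% of promoters, had 1 match in EXLA3. The TATA motif TATAAA, held by 47.4%, had 2 matches in EXLB1, 1 in EXLA1, 2 in EXLA2 and none in EXLA3. Those of EXLB1 and EXLA1 are on the strand of the gene, and both of EXLA2 are on the opposite strand, read as TTTATA. In EXLA1 the TATA motif shares 1 base with the AACGCG match, so the capitals run together. The G-box CACGTG, the CRT/DRE core CCGAC and the evening element AAAATATCT, held by 6.49%, 12.0% and 2.36% of promoters, had no match in the 4 windows. Both AACGCG matches of EXLA3 lie in a 26-base run, ctatgagtcaaacgcgtaattagaaa, that occurs at 154 and again at 90 bases before its start. These matches describe the letters only.

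The deposited values are normalized read counts, and their totals per library ran from 31990484 to 34322625. GTE4 transcript fell from 1703 ± 73.6 in wild type (SD, n = 3) to 75.0 ± 21.0 in gte4 and 89.9 ± 9.95 in the triple mutant (limma adjusted p of 1.74e-10 and 2.18e-10). In eml1 eml2 it read 2134 to 2202, above the 1618 to 1753 of wild type. EML2 was reduced in both genotypes that carry eml2, but to unlike levels. It read 612, 549 and 546 in wild type, 117, 112 and 94.7 in eml1 eml2, and 32.1, 28.8 and 31.4 in the triple mutant. EML1 was not reduced in any mutant, so these values do not check the eml1 genotype. The leaf markers were abundant, with a summed level of 1339930 to 1661365. The 12 root markers summed to 1336 to 1675. Of these, the root hair regulator RHD6 was listed at 0 in every library, and EXPA7, EXPA18, PLT1 and PLT2 had a mean of 0.263 or less. The other 7 root markers were high enough to be tested and made up nearly all of that sum. Root markers as a list were therefore not absent.

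EXLB1 stood out by its level in the mutants. In wild type it read 253, 298 and 311 in replicates 1, 2 and 3. The gte4 libraries read 63.7, 91.6 and 78.7, and those of eml1 eml2 66.6, 60.6 and 77.7. The triple-mutant libraries read 36.7, 29.0 and 39.7. All 9 mutant libraries lay below all 3 wild-type libraries, and all 3 triple-mutant libraries lay below those of gte4 and eml1 eml2, which overlapped each other. Such a position of all mutant libraries below wild type was found for 11.8% of the 22315 genes tested, the triple mutant wholly below gte4 for 15.5% and wholly below eml1 eml2 for 12.7%.

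The means of EXLB1 were 287 ± 30.1 for wild type, 78.03 ± 14.0 for gte4, 68.3 ± 8.63 for eml1 eml2 and 35.1 ± 5.52 for the triple mutant (SD, n = 3). Against wild type the fitted log2(value + 1) differences were -1.88 for gte4, -2.06 for eml1 eml2 and -3.004 for the triple mutant, each with an SE of 0.176. These correspond to levels 3.67-fold, 4.17-fold and 8.02-fold lower. For comparison, 25.9% of genes were called in gte4, 23.6% in eml1 eml2 and 33.6% for the triple mutant. On the log2 scale the triple mutant's difference was smaller than the sum of the other mutants' differences by 0.93 (SE 0.248). EXLB1 was chosen by the differences in that sum, so this value is a description and was not tested. Of all genes, 2.94% were called for such a departure in either direction. The labels give seedlings as the material, and these bulk libraries mix cell types, so fewer cells that express EXLB1 and less transcript per cell cannot be told apart.

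**Figure D1:**
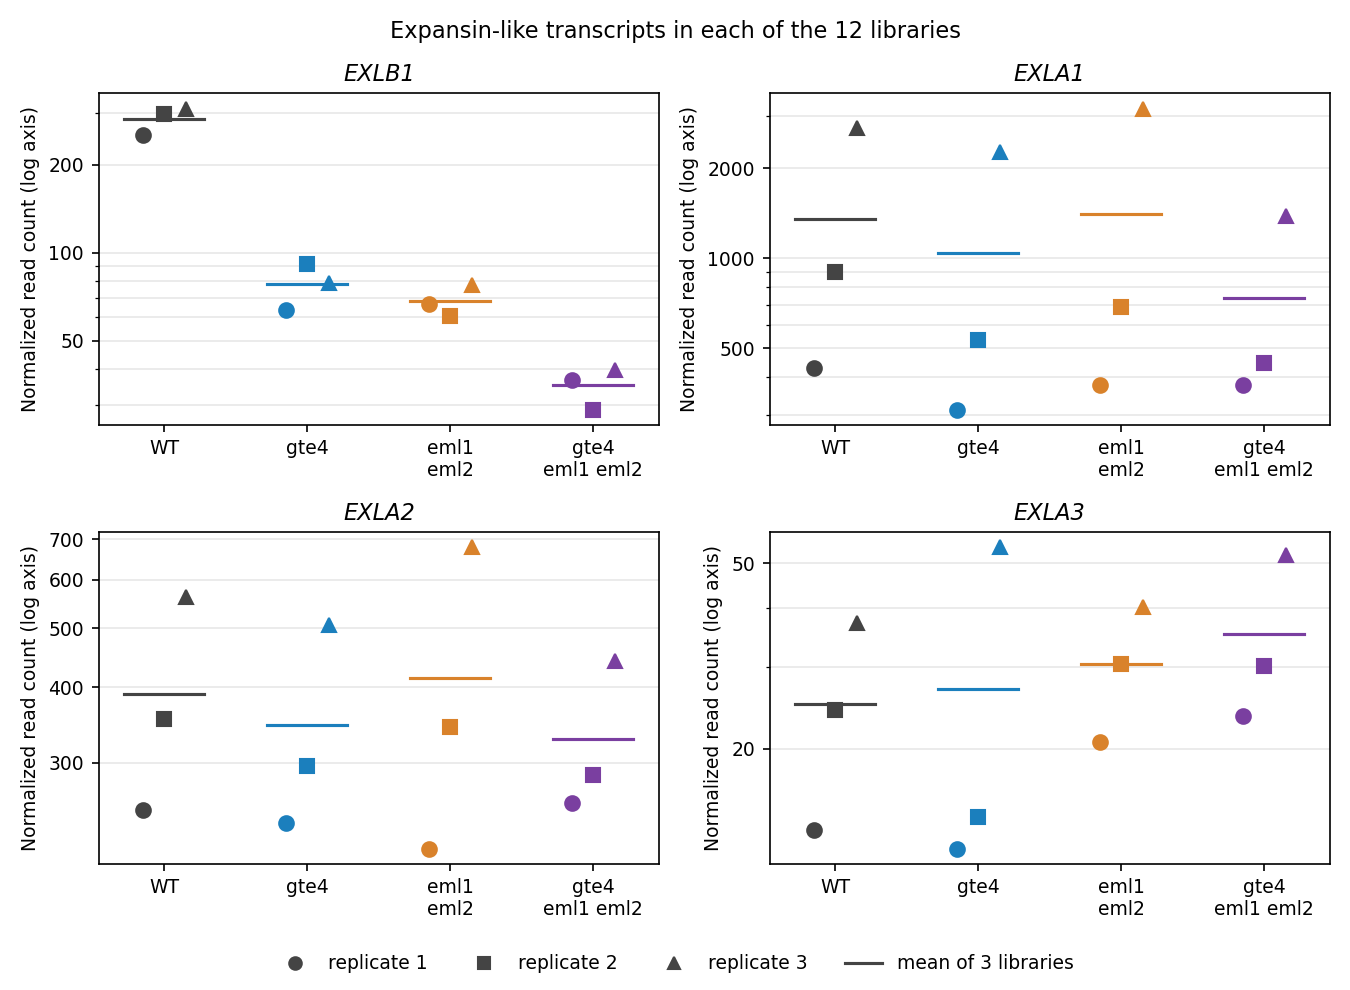
Normalized read count (log axis, with its own range in each panel) of EXLB1, EXLA1, EXLA2 and EXLA3 in each library, by genotype. Symbols give the replicate number and lines the mean of 3 libraries. EXLB1 separates by genotype, from 253 or more in wild type to 39.7 or less in the triple mutant, whereas for the EXLA genes replicate 1 is the lowest and replicate 3 the highest library of every genotype.

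The triple mutant was next compared with gte4 and with eml1 eml2. EXLB1 was lower in the triple mutant than in gte4, with a log2 difference of -1.13 (SE 0.176, limma adjusted p = 0.00324), or 2.18-fold. It was also lower than in eml1 eml2, by 1.92-fold, with a log2 difference of -0.94 (SE 0.176, limma adjusted p = 0.0108). EML2 transcript, too, was lower in the triple mutant than in eml1 eml2, so these genotypes differ in more than GTE4. EXLB1 was the only expansin-like gene called in either comparison, where 9.55% and 1.66% of all genes were called, 5.08% and 1.23% as lower. Between gte4 and eml1 eml2, EXLB1 differed by 0.18 on the log2 scale, with a 95% interval of -0.19 to 0.55 (limma adjusted p = 0.540). In that comparison 13.5% of genes were called by limma, and none of the 4 expansin-like genes passed, also at an unadjusted p under 0.05 (0 genes).

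The call against eml1 eml2 was lost under 6 of 23 alternatives, and over all of them its limma adjusted p ran from 0.00337 to 0.180. It was lost without eml1 eml2 replicate 3 (limma adjusted p = 0.0509). Leaving replicate 1, 2 or 3 out of every genotype also removed it (limma adjusted p of 0.0872, 0.180 and 0.0852). The call against gte4 was lost only without replicate 2 of every genotype (limma adjusted p = 0.219), the highest of a range from 0.000588. Libraries of gte4 and eml1 eml2 had also entered the comparisons on which EXLB1 was chosen.

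Inflorescence markers moved with the mutants as well. Of 13 floral genes of that list, 6 were higher in gte4, 9 in eml1 eml2 and 6 for the triple mutant, and none was lower, where 25.9%, 23.6% and 33.6% of all genes were called. Their summed level was 1007 to 1247 in wild type, 1504 to 1519 in gte4, 1664 to 2148 in eml1 eml2 and 1520 to 1837 for the triple mutant. None of the 13 was listed at 0. Between the triple mutant and either of gte4 and eml1 eml2 limma called 0 of the 13, with 1 and 3 at an unadjusted p under 0.05; of all genes 9.55% and 1.66% were called there. Of 5 leaf markers, 3 were higher in gte4, 2 in eml1 eml2 and 2 for the triple mutant, where 1 was lower. Their median log2 changes were 0.30, 0.10 and 0.19. Of the 7 root markers that could be tested, 2 were higher in each mutant, and 2, 1 and 1 were lower. The part of tissue composition in the level of EXLB1 was not tested.

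Genes beside EXLB1 differed from wild type by far less. AT4G17020, on the same strand, starts 122 bases beyond the end of EXLB1. It was not called in any mutant, with log2 changes of -0.02, 0.14 and 0.12 in gte4, eml1 eml2 and the triple mutant. CLPR4, a subunit of the chloroplast Clp protease on the other side, was lower in all 3 mutants (-0.41, -0.22 and -0.44; limma adjusted p of 1.32e-05, 0.0028 and 2.81e-06). UGLYAH was lower in all 3 (-0.20, -0.24 and -0.26, with limma adjusted p of 0.00588, 0.00227 and 0.000645). AT4G17010 was lower only in the triple mutant by this threshold, at -0.64 (SE 0.106, limma adjusted p = 0.000213), against -0.16 and -0.27 in gte4 and eml1 eml2.

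Taken without regard to replicate number, the libraries did not separate by genotype for the EXLA genes. EXLA1 read 430.2, 898 and 2722 in wild type replicates 1, 2 and 3, 311, 534 and 2271 in gte4, 377, 685 and 3170 in eml1 eml2, and 377, 447 and 1384 for the triple mutant. EXLA2 read 251, 354 and 562 in wild type, 239, 297 and 505 in gte4, 217, 344 and 679 in eml1 eml2, and 258, 286 and 441 for the triple mutant. EXLA3 read 13.4, 24.1 and 37.2 in wild type, 12.2, 14.3 and 54.1 in gte4, 20.6, 30.4 and 40.2 in eml1 eml2, and 23.6, 30.1 and 52.0 for the triple mutant. For each of the 3 genes the libraries of every mutant overlapped those of wild type.

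The fit to genotype alone, with no term for the replicate number, gave the EXLA genes wide SEs. EXLA1 differed by -0.49, -0.12 and -0.72 on the log2 scale in gte4, eml1 eml2 and the triple mutant, with an SE of 1.11. EXLA2 differed by -0.16, 0.01 and -0.20, with an SE of 0.492. EXLA3 differed by -0.10, 0.34 and 0.52, with an SE of 0.540. With the replicate number as a block the same differences had SEs of 0.220 for EXLA1, 0.116 for EXLA2 and 0.285 for EXLA3. Set beside the wild-type library of the same number, EXLA1 was lower in all 3 libraries of gte4 and of the triple mutant, and EXLA3 was higher in all 3 of eml1 eml2 and of the triple mutant. Whether the numbers pair the libraries is not given in the labels. In the fit without the block, between the triple mutant and eml1 eml2 the 95% interval of the log2 difference ran from -3.15 to 1.94 for EXLA1, -1.34 to 0.92 for EXLA2 and -1.003 to 1.36 for EXLA3. Between the triple mutant and gte4 it ran from -2.78 to 2.31, -1.18 to 1.08 and -0.56 to 1.80. No EXLA gene passed the threshold between mutants, with limma adjusted p of 0.527 or higher.

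What did order the EXLA genes was the replicate number in the labels. In all 4 genotypes replicate 1 was the lowest and replicate 3 the highest library for EXLA1, EXLA2 and EXLA3, an order held by 1.75% of the genes tested. Replicate 3 exceeded replicate 1 of EXLA1 by 6.33-fold in wild type, 7.29-fold in gte4, 8.42-fold in eml1 eml2 and 3.67-fold for the triple mutant. For EXLA2 the ratios were 2.24, 2.11, 3.13 and 1.71. For EXLA3 they were 2.79, 4.43, 1.95 and 2.21. EXLB1 lacked that order, with ratios of 1.23, 1.24, 1.17 and 1.08.

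A replicate term was fitted beside genotype over all genes after these values had been seen, and 6.61% of genes were called, 4.26% of all genes with replicate 3 above replicate 1. Its limma F test asks whether any of the 3 replicate numbers differ, not replicate 3 against replicate 1 alone. EXLA1 was higher in replicate 3 than in replicate 1 libraries by 2.62 on the log2 scale (SE 0.190, limma F test adjusted p = 0.000389), the 15th largest difference of 22315 genes. EXLA2 was higher by 1.16 (SE 0.101, limma F test adjusted p = 1.19e-06) and EXLA3 by 1.38 (SE 0.247, limma F test adjusted p = 0.00263). EXLB1 differed by 0.23 (SE 0.146, limma F test adjusted p = 0.677). The labels do not say what the replicate numbers stand for.

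Some transcripts known to respond to touch and handling had the same libraries high. Of 8 genes on that list, 5 were called by the replicate term, all higher in replicate 3. Of all genes, 6.61% were called by that term, 4.26% as higher in replicate 3. The median of the 8 listed genes was 1.46 on the log2 scale, against -0.01 for all genes. Their summed level in replicates 1, 2 and 3 was 2273, 6693 and 15207 in wild type, 2831, 5363 and 15236 in gte4, 2320, 4877 and 14915 in eml1 eml2, and 2478, 4184 and 7419 in the triple mutant. None was listed at 0. TCH4 (XTH22), a touch-induced xyloglucan endotransglucosylase, was 12.9-fold higher in replicate 3 than in replicate 1 (limma F test of the replicate term, adjusted p = 0.00137). It made up 8597 of the sum of 15207 in wild-type replicate 3 and 9332 of 15236 in gte4 replicate 3. STZ, WRKY33 and RHL41 were not called (limma F test adjusted p of 0.133, 0.0544 and 0.407). RHL41, WRKY40 and CAF1a lacked the replicate order of the EXLA genes. In the triple mutant RHL41 was lower in replicate 3 than in replicate 1, with a ratio of 0.644. The part of handling in the EXLA levels was not tested.

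**Figure D2:**
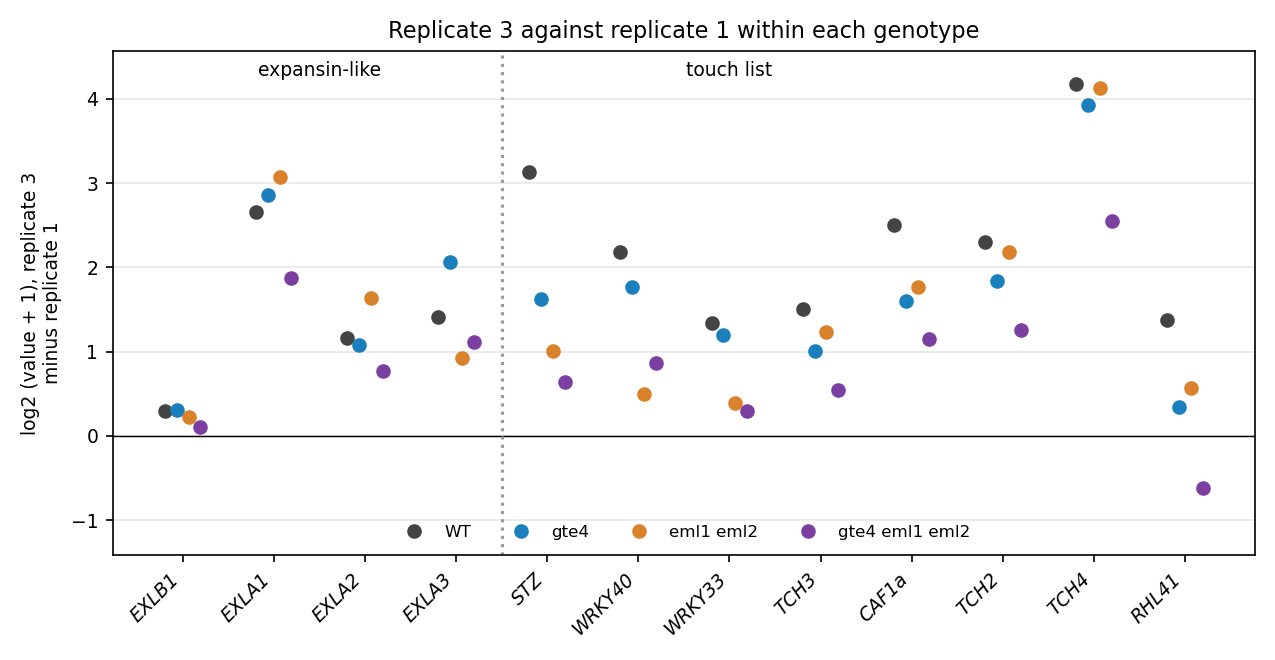
Log2(value + 1) of replicate 3 minus that of replicate 1 within each genotype, for the 4 expansin-like genes (left of the dotted line) and the 8 touch genes (right). Each dot is a genotype. The dots of EXLA1 lie between 1.87 and 3.07 and those of EXLB1 between 0.11 and 0.30.

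Other wall-modifying genes differed on this measure. By the replicate term 6.61% of all genes were called, 4.26% with replicate 3 above replicate 1. XTH genes encode enzymes that cut and rejoin xyloglucan. Of 26 tested, the limma F test of that term called 13 with replicate 3 above replicate 1 and 1 with it below. Their median was 0.42, and XTH22 is in this list and in the touch list. Of 18 tested alpha- and beta-expansins, the same F test called 0 with replicate 3 above replicate 1 and 3 with it below. These were EXPA1, EXPA15 and EXPA4, chosen for mention after their values were seen. The median of the 18 was -0.11, and 6 of them had an unadjusted F test p under 0.05.

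Per kilobase of exon, the expansin-like genes spanned a wide range of levels in wild type. EXLA1 had the highest mean, 1268 ± 1137 normalized counts per kilobase, then EXLA2 at 345 ± 141, EXLB1 at 257 ± 27.0 and EXLA3 at 18.2 ± 8.73 (SD, n = 3). EXLA1 overlapped EXLA2, and EXLA2 overlapped EXLB1, over their libraries, while EXLA3 lay below the other 3 throughout. In the triple mutant EXLB1 stood at 31.4 ± 4.94 per kilobase and overlapped EXLA3, at 25.7 ± 10.9. In gte4 and eml1 eml2 EXLB1 stood at 69.9 ± 12.5 and 61.1 ± 7.73 per kilobase, between EXLA2 and EXLA3.

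**Figure D3:**
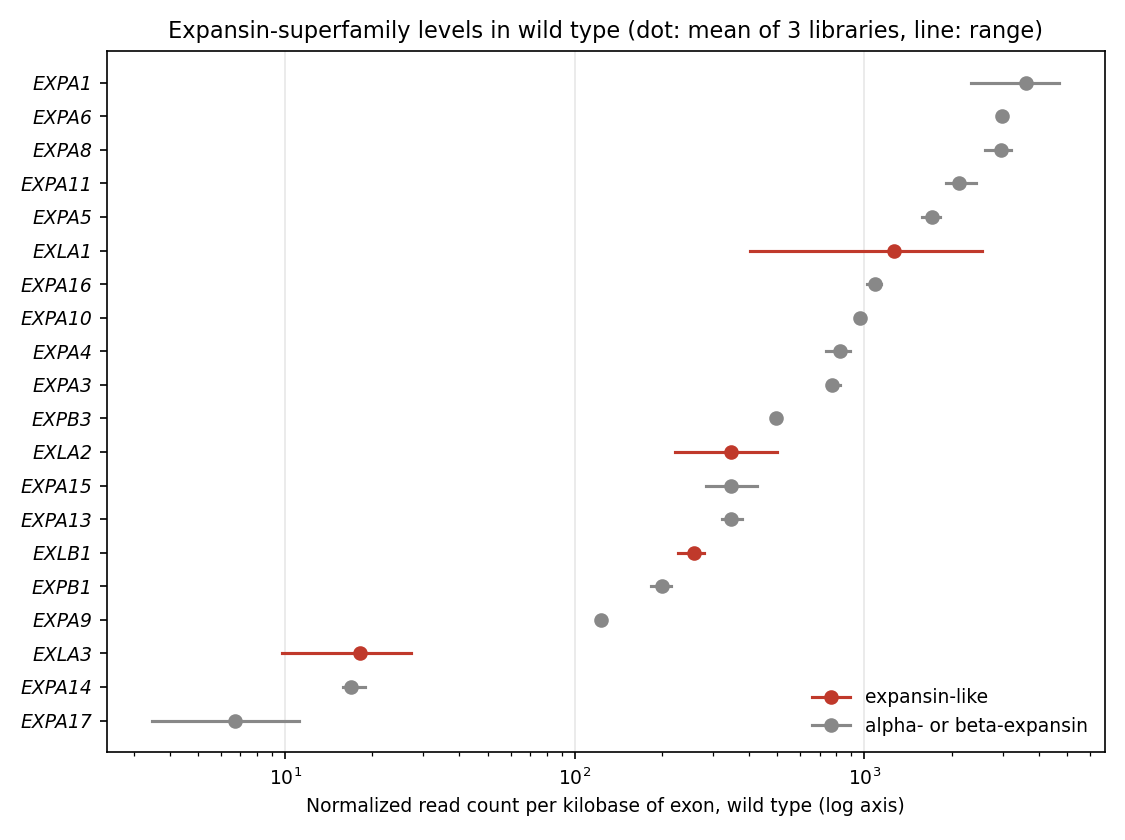
Normalized read count per kilobase of exon in wild type (log axis) for the expansin-like genes (red) and the alpha- and beta-expansins with a wild-type mean of at least 5 (grey). Dots are means of 3 libraries and lines run from the lowest to the highest. EXLA1 has the widest range of the well-expressed genes shown, and EXLA3 is near the bottom at 18.2.

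The alpha- and beta-expansins were tested against wild type. Of 30 genes 18 could be tested, and 7 were listed at or near 0 in every library. In gte4, 5 were higher and 1 was lower, with a median log2 change of 0.24; in eml1 eml2, 3 were higher and 1 lower, with a median of 0.03; and in the triple mutant, 5 were higher and 1 lower, with a median of 0.23. The medians of all genes were 0.00, 0.01 and 0.00. Over all genes 25.9%, 23.6% and 33.6% were called in these comparisons, so the counts of 6, 4 and 6 of 18 are not far from the share over all genes. Between the triple mutant and gte4, or eml1 eml2, limma called 0 of the 18, with 3 and 2 at an unadjusted p under 0.05. Of all genes 9.55% and 1.66% were called there.

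EXPA14 read 27.3, 27.0 and 32.3 in wild type, 37.0 to 72.1 in gte4, 58.0 to 66.8 in eml1 eml2 and 67.9 to 74.3 for the triple mutant. Every mutant library was above wild type, with log2 changes of 0.70, 1.07 and 1.27 (SE 0.226; limma adjusted p of 0.0306, 0.00279 and 0.000394). Its call in gte4 was lost without WT replicate 1 or 2 or gte4 replicate 3 (limma adjusted p of 0.0749, 0.0822 and 0.158). EXPA5 rose in gte4 and the triple mutant, by 0.54 and 0.47 on the log2 scale (SE 0.087; limma adjusted p of 0.000502 and 0.000814). In eml1 eml2 its log2 change was 0.21 (limma adjusted p = 0.104).

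EXPA9 was higher in all 3 mutants, by 0.38, 0.38 and 0.59 on the log2 scale (SE 0.102; limma adjusted p of 0.0124, 0.0118 and 0.000301), and its call in gte4 was lost without gte4 replicate 1 (0.0667). EXPA3 was higher in gte4 and the triple mutant, by 0.34 and 0.33 (limma adjusted p of 0.0136 and 0.012). These calls were lost without WT replicate 1 (0.0552) or gte4 replicate 2 (0.0666) for gte4, and without replicate 1 of the triple mutant (0.0575). EXPB3, a beta-expansin, was higher in all 3 mutants, by 0.30, 0.28 and 0.29 (limma adjusted p of 0.00851, 0.0163 and 0.00849). It missed the threshold in gte4 without gte4 replicate 2 (0.051), and in eml1 eml2 without WT replicate 3 (0.0531) or eml1 eml2 replicate 2 (0.0781).

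EXPA16 was the only member of the list called lower in any mutant. It stood at 1365 ± 74.5 for wild type, 972 ± 42.6 for gte4, 1076 ± 62.0 for eml1 eml2 and 1068 ± 86.7 for the triple mutant, with no overlap between wild type and any mutant. Its log2 changes were -0.49, -0.34 and -0.35 (SE 0.0709; limma adjusted p of 0.000129, 0.00235 and 0.00105).

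**Figure D4:**
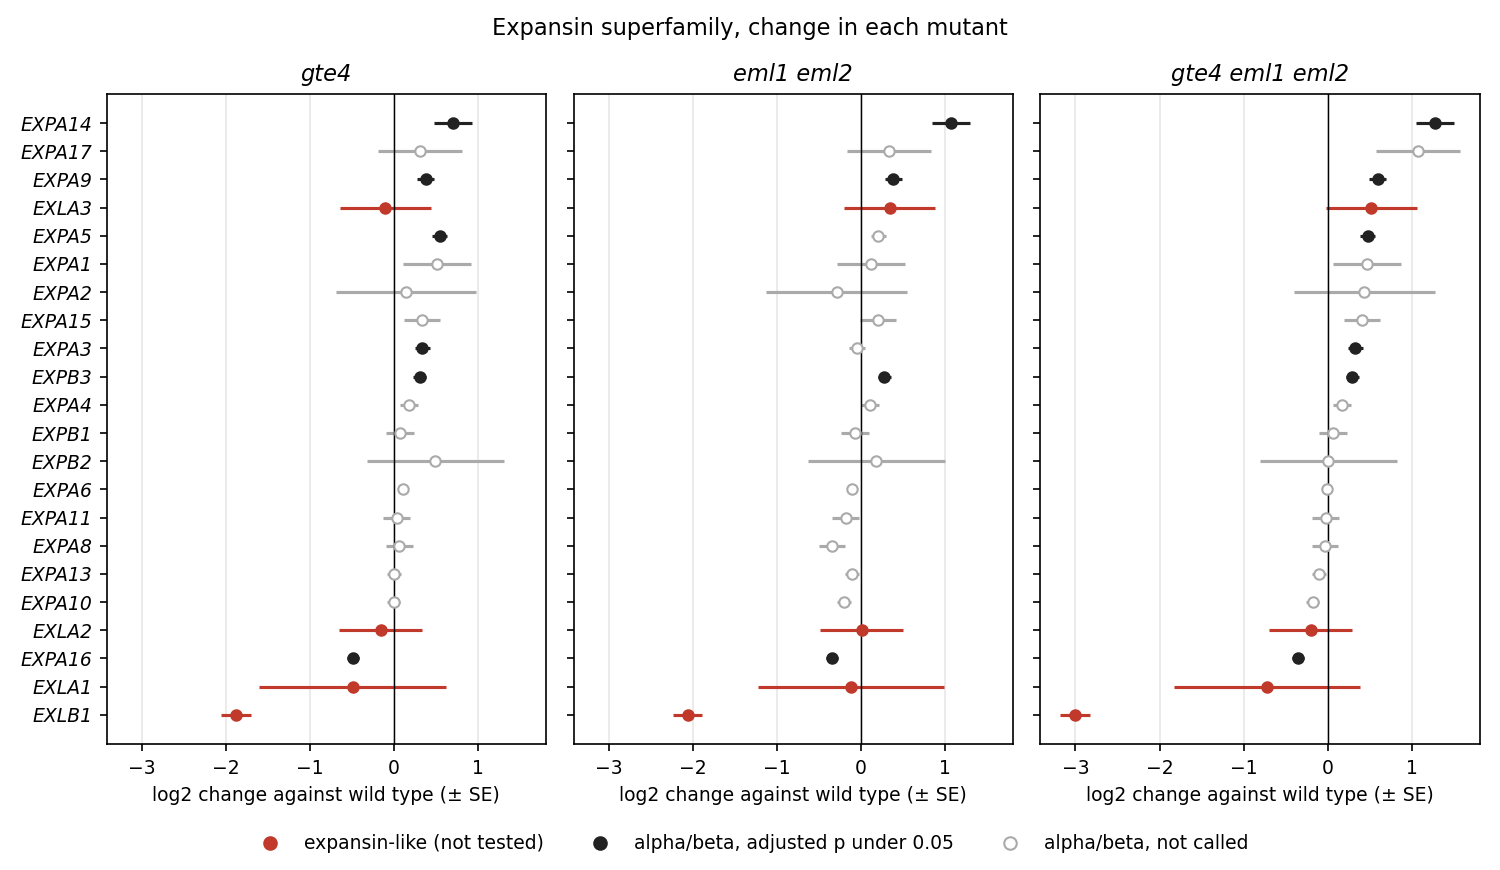
Fitted log2 change against wild type, with SE, of the expansin-like genes (red, not tested) and the 18 tested alpha- and beta-expansins (black where the limma adjusted p was under 0.05, open where not), in each mutant. EXLB1 is the lowest point in all 3 panels, at -1.88, -2.06 and -3.004, and the falls called among the tested genes are those of EXPA16.

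Among the XTH genes, 26 of 33 could be tested, and 4 were higher and 0 lower in gte4, 2 higher and 3 lower in eml1 eml2, and 3 higher and 2 lower in the triple mutant. The medians were 0.07, 0.11 and 0.02. Over all genes 25.9%, 23.6% and 33.6% were called in these comparisons, so that the counts of 4, 5 and 5 of 26 are no larger a share than over all genes. The count of 4 in gte4 came to 1 without WT replicate 1 or gte4 replicate 2 and to 2 without WT replicate 2 or gte4 replicate 1. The count of 5 in eml1 eml2 came to 2 without WT replicate 1 or eml1 eml2 replicate 2. It came to 3 without eml1 eml2 replicate 1, gte4 replicate 2, or replicate 1 or 2 of the triple mutant. The shares of all genes called with these libraries left out are not given here.

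XTH15 read 89.9, 79.96 and 160.3 in wild type, 220.0 to 419 in gte4, 323 to 718 in eml1 eml2 and 357 to 621 for the triple mutant. Its log2 changes were 1.501, 2.03 and 2.07 (SE 0.416; limma adjusted p of 0.0299, 0.00871 and 0.00521), and the gte4 call was lost without WT replicate 1 or 2 or gte4 replicate 2 or 3 (0.0739 to 0.0946). XTH6 rose in gte4 and the triple mutant, by 0.49 and 0.51 (limma adjusted p of 0.00897 and 0.00565). XTH8 fell in eml1 eml2 and the triple mutant, with log2 changes of -0.39 and -0.25 (limma adjusted p of 0.000572 and 0.00849).

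XTH5 was lower in the triple mutant, at -0.53 (limma adjusted p = 0.0108). XTH17 was lower in eml1 eml2, at -0.65 (limma adjusted p = 0.0498), a call lost under 16 of 23 alternatives, among them without any single library of wild type. XTH3 was listed at 0 in wild-type replicates 1 and 2 and read 25.2 in replicate 3, against 86.9, 122 and 50.2 in eml1 eml2. It was called there (limma adjusted p = 0.029), and the call was lost without WT replicate 1 (0.0852), WT replicate 2 (0.102) or any of the 3 eml1 eml2 libraries (0.0547 to 0.0872).

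Each expansin-like gene was set beside the 5 genes with the highest Pearson's r of log2 values over the 12 libraries, out of 16738 genes with a mean of at least 50. The libraries share genotypes and replicate numbers, so these values are descriptions. For EXLB1 they were CP12-2 (r = 0.993), which encodes a small regulator of the Calvin cycle, FLDH (0.992), a farnesol dehydrogenase, AT1G68260 (0.992), AT5G52540 (0.991) and mtLPD1 (0.990), a mitochondrial lipoamide dehydrogenase. CP12-2 stood at 14732 ± 669 for wild type, 9223 ± 440 for gte4, 9182 ± 585 for eml1 eml2 and 7438 ± 562 for the triple mutant (SD, n = 3).

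For EXLA1 the 5 were PP2CA (0.986), a phosphatase that restrains abscisic acid signalling, EXO (0.986), EXLA2 (0.984), BT1 (0.979) and AT3G24530 (0.976). EXLA2 had EXLA1, EXO (0.981), BT1 (0.981), the ethylene response factor gene ESE3 (0.980) and PP2CA (0.978). EXO, a brassinosteroid-responsive growth gene, was 5.41-fold higher in replicate 3 than in replicate 1. EXLA3, the least abundant, had looser matches, the trihelix factor gene GTL1 (0.925), AT1G68400 (0.923), TPS8 (0.923), AT5G19190 (0.918) and NDL1 (0.917).

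Genes next to the EXLA genes were also read. AT3G45940, on the far side of EXLA3, read 23.6, 45.6 and 33.9 in wild type and 11.6, 14.8 and 12.6 in the triple mutant, without overlap, a log2 change of -1.30 (SE 0.369, limma adjusted p = 0.0122), and was not called in gte4 (-0.50) or eml1 eml2 (-0.62). ADF2, which encodes an actin-depolymerizing factor, was higher in gte4 only by this threshold (0.22, limma adjusted p = 0.00608), and AT3G45930 was not called in any mutant. HTB9, which overlaps EXLA1, was lower in eml1 eml2 (-0.18, limma adjusted p = 0.0373) and the triple mutant (-0.30, 0.00129), and did not follow the replicate number (log2 difference 0.01 between replicates 3 and 1). Near EXLA2, AT4G38370 was lower in all 3 mutants, by log2 changes of -0.96, -0.55 and -1.08 (limma adjusted p of 0.000162, 0.00999 and 2.7e-05), while AT4G38380, sks9 and ROPGEF1 were not called in any mutant.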

How the data were processed

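Total RNA, extracted with TRIzol per the labels' protocols, was sequenced as 150-base read pairs in 12 libraries. Per the submitters' processing notes bcl2fastq, HISAT2, edgeR and TAIR10 were used. Versions, the counting program, its annotation and strand setting are not given in the sources used here. The deposited signal is a normalized read count that the authors had scaled before deposit. Values are not whole numbers and whole reads could not be recovered, so the test planned for other units was used instead of the one for counts, and no counting interval can be given. All 12 value columns were matched to labelled samples, leaving 0 unmapped.

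Values were transformed as log2(value + 1), so changes of low genes are understated. limma 3.58.1 (R 4.3.3; trend and robust moderation) fitted 1 coefficient per genotype to all 12 libraries over 22315 genes with a mean of at least 1, and each p was adjusted by Benjamini-Hochberg over those genes within a comparison. A gene was called at an adjusted p under 0.05. The script was tested on simulated data. Alternatives were other pseudocounts, filters, scalings, a replicate block, fits of 2 genotypes, and libraries left out. The replicate numbers met the pairing rule (same-number correlations of deviations above 0.1 in all 3 pairs) only for eml1 eml2 with the triple mutant, at 0.182 to 0.217, when all tested genes were used. When the 16738 genes averaging at least 50 were used, 4 of 6 genotype pairs met it, with correlations up to 0.624 in them. No label says what the numbers mean.

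The 4 genes, the gene lists and the tests were chosen with earlier results of these data known. Named beside them are, per comparison with wild type and direction, up to 4 called expansins and 2 called XTH genes, the nearest 2 genes on each side with a mean of at least 20, and the 5 genes with the most similar profile. Gene names, exon lengths, coordinates and sequences come from RefSeq TAIR10.1, which holds 32548 of the 32548 gene IDs, and coding sequences were aligned with biopython 1.88.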

Additional observations from a re-analysis of the deposited data

Results flagged for a closer look

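EXPA16, an alpha-expansin, had a difference in the triple mutant that departed from the sum of those in gte4 and eml1 eml2: its log2 change was 0.48 less negative than that sum (SE 0.1002, limma adjusted p of the interaction = 0.018). Of all genes tested, 2.94% passed this threshold. EXPA16 stood at 1365 ± 74.5 for wild type, 972 ± 42.6 for gte4, 1076 ± 62.0 for eml1 eml2 and 1068 ± 86.7 for the triple mutant (SD, n = 3), and its levels in the 3 mutants overlapped. The test was added after the values were seen.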

How the results depend on the processing

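EXLB1's log2 difference from wild type kept its sign under all 23 alternatives, at -1.74 or lower in gte4, -1.95 or lower in eml1 eml2, and -2.85 or lower in the triple mutant; no called value reversed. Of the expansin-like genes, the count of 1 called between the triple mutant and eml1 eml2 came to 0 with no filter on low values (EXLB1 adjusted p = 0.061) and with only 2 genotypes fitted (0.0536), and ran from 0 to 1 with libraries left out. Between the triple mutant and gte4 it ran from 0 to 1 with libraries left out. With the replicate block EXLB1 had adjusted p of 0.00337 and 0.000588 in these comparisons, and no EXLA gene was called between mutants. The best match in another genotype had the same number for 12 of 12 libraries over genes with a mean of at least 1 and for 10 of 12 over genes with a mean of at least 50. In gte4 the expansin count of 6 came to 9 with the replicate block and 3 with no filter, and ran from 2 to 7 with libraries left out. In eml1 eml2 the count of 4 came to 7 with the replicate block and 7 with only 2 genotypes fitted, and ran from 0 to 5. In the triple mutant the count of 6 came to 10 with the replicate block, and ran from 5 to 7. The XTH count of 4 in gte4 came to 10 with the replicate block and 2 with no filter, and ran from 1 to 6. In eml1 eml2 the count of 5 came to 9 with the block and 2 with only 2 genotypes fitted, and ran from 1 to 8. In the triple mutant the count of 5 ran from 1 to 6. The shares of all genes called under each alternative are not given here, so these counts cannot be set against them. The causes were not tested. Leaving a replicate number out of every genotype was added after the data were seen. The depth behind the values is unknown.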
